A study of Hordeum vulgare with 22 samples.

Results

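The genes described here are the neighbours of MND1 on barley chromosome 7H. They are the 449 genes of the deposited expression table whose start lies from 620 Mb to below 660 Mb, MND1 itself left out, among 24318 genes in all. The segment was chosen from line differences: counts of genes that differed between the lines in windows of 10 Mb stood out there, so those differences are given below as a description and without a test. How a line difference depends on stage, and how a gene changes over stages within a line, were tested gene by gene. The first is a difference between the same line differences, so its frequency among these genes is not independent of the choice. Of the 449 genes, 192 lie below MND1 and 257 above it. The first starts at 620003887 and the last at 656937228, which is the last 7H gene of the table.

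Young barley (Hordeum vulgare) inflorescences of 2 lines were sequenced: the line that carries the mnd1.a allele (GSHO2038 in the labels) in a background of the spring cultivar Bowman, and wild-type Bowman. All plants grew in long days with 16 h of light at 22 °C and 8 h of dark at 18 °C, and tissue was collected in the middle of the day. Each piece held the inflorescence with its base and the small leaves under it. The stages on Waddington's scale, which orders barley spikes by the development of the apex and florets, were W2.0, W3.5 and W5.0, with 3, 3 and 4 mnd1.a libraries and 3, 4 and 4 Bowman libraries. Whether the libraries of a group hold different plants is not in the labels, and the spread behind every p-value may therefore be technical. A sample of cultivar Mesa was not analysed here.

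MND1 encodes an acyl-CoA N-acyltransferase, and many-noded dwarf plants form leaves quickly and make many stem nodes. A near-isogenic line is made by crossing a mutant repeatedly to a cultivar while the mutant trait is kept. It can carry donor chromosome on both sides of the selected gene, and which bases of 7H are of donor origin in mnd1.a was not measured here. Plant chromosomes hold groups of neighbouring disease resistance genes, which encode nucleotide-binding, leucine-rich repeat receptors that sense pathogens inside the cell. Such groups are known to differ between cultivars in gene number and sequence.

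Library totals ran from 11436651 to 21596190 estimated counts. Values are CPM, counts scaled to a common library total, after TMM scaling, which corrects library totals for composition. A count of 3 in 1 library corresponds to 0.13 to 0.253 CPM. MND1, which starts at 637080378, had 5.22, 6.71 and 4.80 CPM in mnd1.a at W2.0, against 10.5, 12.6 and 21 CPM in Bowman. At W3.5 it had 4.55, 4.13 and 3.48 CPM in mnd1.a and 14.4, 24.1, 15.9 and 30.6 CPM in Bowman. At W5.0 it had 6.02, 2.39, 5.90 and 6.00 CPM in mnd1.a and 15.8, 16.0, 13.0 and 6.15 CPM in Bowman. All mnd1.a libraries lay below all Bowman libraries of the same stage, though at W5.0 by little. Libraries of the lines were apart for 18.4%, 12.9% and 34.2% of all tested genes in stage order. By edgeR's quasi-likelihood test, described below, the line difference of MND1 had an adjusted p of 0.115, 0.00141 and 0.00653 at these stages.

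One library stood apart from its label. Among all genes, 6 transcripts had at least 1 CPM in every Bowman library and under 5% of the Bowman level in mnd1.a at W3.5 and W5.0, and 4 of them are neighbours of MND1. In mnd1.a at W2.0, replicate 3 held these 6 at a median of 17.6% of the Bowman mean, with a range of 14.5% to 28.1%, while replicates 1 and 2 held medians of 0% and 2.40%. Their summed level was 1.24, 3.04 and 13.2 CPM in the mnd1.a libraries, against 69.5, 61 and 74.7 CPM in the Bowman libraries of that stage. The 9 transcripts chosen in the same way as high in mnd1.a summed to 53.9, 63.3 and 53.3 CPM in the mnd1.a libraries and to 3.22, 1.63 and 6.26 CPM in the Bowman libraries. Single transcripts of these 9 reached 49.9%, 23.7% and 99.9% of the mnd1.a mean in the 3 Bowman libraries. Several results below are also given without replicate 3. The Bowman group of W3.5 was uneven, with the largest median SD of the groups (0.265 on the log2 CPM scale). On the first principal component, with 37.6% of the variance, its libraries lay at -10.8, 62.4, 17.5 and 105. Those of Bowman at W5.0 ran from 31.4 to 121. Without replicates 2 and 4, the nearest to W5.0, 53 genes of the segment differed between the lines at W3.5 (1.59% of all genes).

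Of the 449 genes, 377 passed the filter on low counts and were tested, together with 20755 other genes. The 72 that did not pass averaged at most 0.416 CPM and are not counted among the results below. Counts of 11 of the 449 equalled those of another transcript in every library, so their separate levels are uncertain. A gene is called where edgeR's quasi-likelihood test, adjusted over all 21132 tested genes by Benjamini and Hochberg's method, gave p under 0.05. In bulk tissue, fewer cells that express a gene and less RNA per cell cannot be told apart.

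Line differences shared by all stages were larger and more frequent among these genes than over the whole table, which is how the segment was found. At W2.0, 33 of 377 genes were called (8.75%, against 0.79% of all genes), 12 higher and 21 lower in mnd1.a. Over all genes, 0.497% were higher and 0.293% lower at that stage. Without replicate 3 of mnd1.a at W2.0 the count was 26, and 0.413% of all genes were called. At W3.5 the count was 79 (21%, against 3.91%), with 40 higher and 39 lower, against 1.77% and 2.13% of all genes. Without replicate 2 of mnd1.a at W3.5 it was 49, and the share of all genes was 1.23%. At W5.0 it was 157 (41.6%, against 30.2%), with 85 higher and 72 lower, against 15% and 15.2% of all genes. The median log2 fold change was -0.03, 0.01 and 0.01 at the 3 stages, over genes that went both ways. In the authors' deposited table, 43 of the 449 genes pass an FDR of 0.05 at W2.0 (9.58%, against 1.08% of all genes). At W3.5 there are 85 in that table (18.9%, against 2.73%), and at W5.0 the authors' deposited table has 163 (36.3%, against 26.3%).

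In the same direction at all stages, 29 genes were called (7.69%, against 0.312% of all genes), 10 higher and 19 lower in mnd1.a, against 0.109% and 0.203% of all genes. Without replicate 3 of mnd1.a at W2.0 there were 25, and the W2.0 calls that were lost had an adjusted p of 0.155 (HORVU7Hr1G108960), 0.112 (HORVU7Hr1G110540), 0.0828 (HORVU7Hr1G111610) and 0.0519 (HORVU7Hr1G117540). The whole table held 66 such genes, 30 of them on 7H and 18 on 2H. No gene of the segment was called in opposite directions at 2 stages, against 0.151% of all genes. For 41 genes (10.9%, against 0.549%), the 10 mnd1.a libraries of all stages lay wholly apart from the 11 Bowman libraries, 16 above and 25 below (0.213% and 0.336% of all genes). Among the 29 genes, 20 differed at least 2-fold at every stage and 8 of these at least 8-fold, with groups without counts at their lower bound, and 4 differed by less than 2-fold at every stage.

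**Figure D1:**
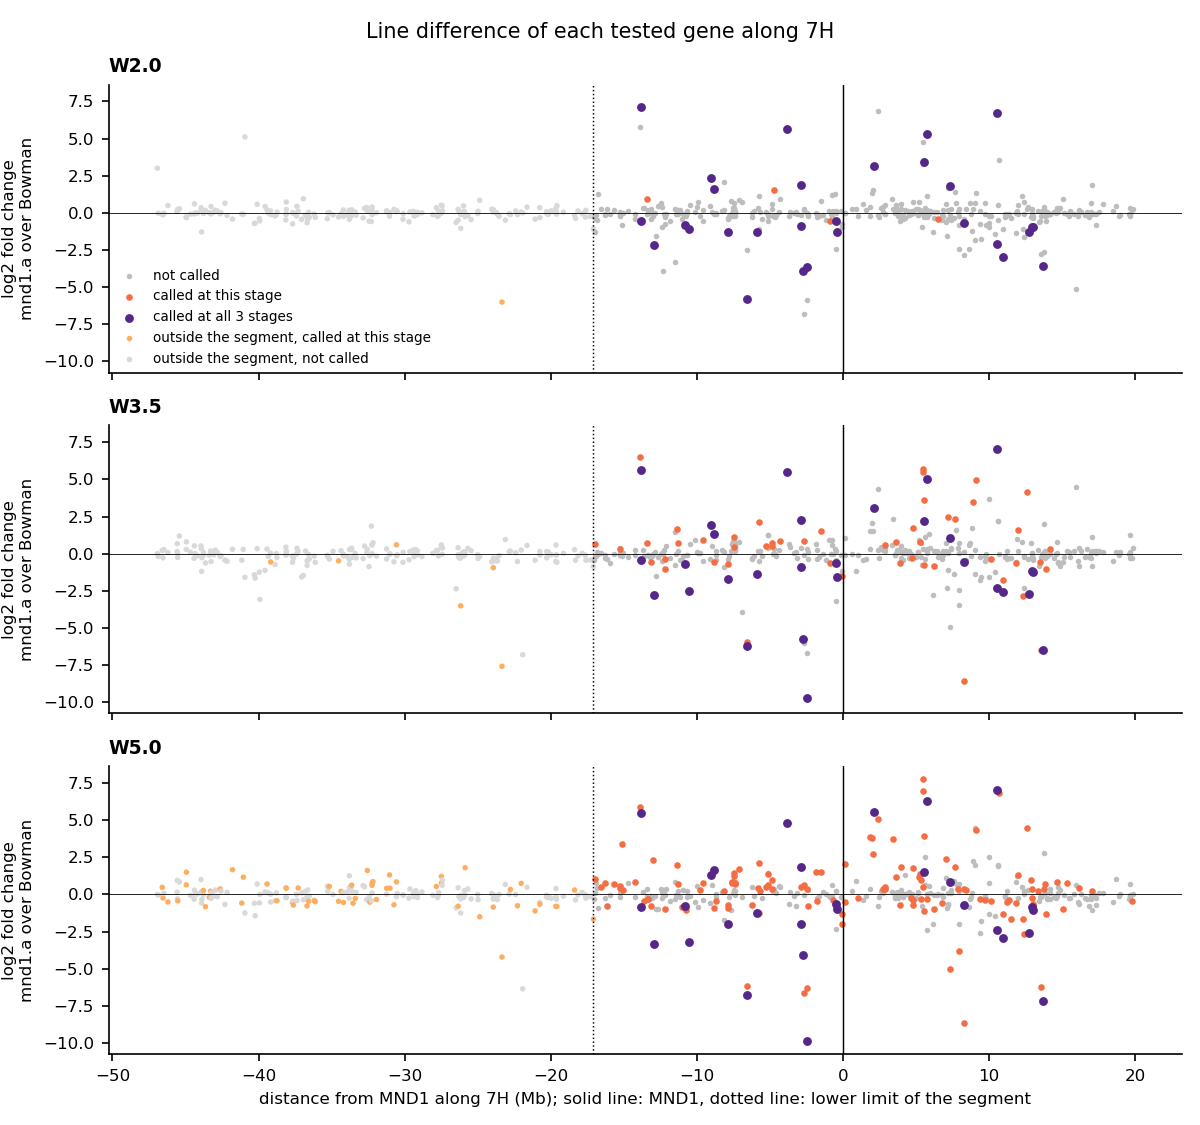
Log2 fold change of mnd1.a over Bowman (vertical axis) for every tested gene of 7H from 590 Mb onward, against its distance from MND1 in Mb (horizontal axis), 1 panel a stage. Purple points are the 29 genes called at all stages and orange points those called at the stage shown; purple points run from 13.8 Mb below MND1 to 13.7 Mb above it, and many more orange points appear at W5.0, inside and outside the segment. Values beyond about 5 include genes with counts in both lines, such as HORVU7Hr1G107510, and genes without counts in 1 line, such as HORVU7Hr1G110540. Where a group has no counts, the fitted value depends on the prior count.

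Of the 29 genes called at all stages, the one with the largest difference at its weakest stage was a disease resistance gene, HORVU7Hr1G118440 (7H, 647645037 to 647648925), nearly silent in Bowman. It had 5.96, 5.77 and 5.90 CPM in mnd1.a at W2.0, against 0.147, 0 and 0 CPM in Bowman. At W5.0 it had 8.82, 8.57, 7.27 and 8.54 CPM in mnd1.a and 0, 0.128, 0.0563 and 0.0634 CPM in Bowman. Bowman held 2 counts in all at W2.0, which gives a ratio of 127 with a 95% interval of 34.9 to 1058 for counting error only. The receptor-like kinase HORVU7Hr1G107510 (623257213 to 623269554), of the family of cell surface kinases, was the first gene of the segment called at all stages. It had 24.7, 28.9 and 26.3 CPM in mnd1.a at W2.0, against 0.0733, 0.136 and 0.333 CPM in Bowman. At W3.5 its level was 55.5, 56.6 and 95 CPM in mnd1.a and 3.26, 0.913, 0.603 and 0.674 CPM in Bowman. In both lines its level depended on stage (edgeR adjusted p = 0.00507 in mnd1.a and 0.0115 in Bowman), highest at W3.5, while the line difference did not pass the test for dependence on stage (adjusted p = 0.448).

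Ethylene-responsive transcription factor 5, HORVU7Hr1G111280 (633235382 to 633240242), belongs to a family that acts in stress responses in Arabidopsis. Its mnd1.a libraries held 2.65, 2.50 and 2.86 CPM at W2.0 and 3.98, 4.06 and 3.72 CPM at W3.5. The W5.0 libraries of mnd1.a held 4.62, 3.78, 5.60 and 4.44 CPM. No Bowman library of any stage exceeded 0.282 CPM. The cytochrome P450 gene HORVU7Hr1G116160 (642817103 to 642819273), of a family that oxidises small molecules, showed the same contrast of presence and near absence. It had 4.04, 3.55, 3.71 and 4.02 CPM in mnd1.a at W5.0 and 0.0887, 0.0642, 0 and 0 CPM in Bowman.

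Smaller differences that lasted through all stages were seen for genes active in both lines. Subunit 3 of the Arp2/3 complex, which starts actin branches (HORVU7Hr1G109420, 628034882 to 628037336), had 16.9, 19.7 and 16 CPM in mnd1.a at W2.0, against 3.22, 3.81 and 3.33 CPM in Bowman. Its W5.0 libraries held 22.1, 19.3, 18.6 and 19.1 CPM in mnd1.a and 5.99, 8.99, 9.29 and 7.80 CPM in Bowman. Its log2 fold change over the 3 stages was 2.3 ± 0.18, 1.92 ± 0.15 and 1.31 ± 0.14 (SE). Endonuclease V (HORVU7Hr1G109560), which cleaves nucleic acids at deaminated bases, was 1.61 ± 0.29, 1.33 ± 0.25 and 1.62 ± 0.24 higher on the log2 scale at the 3 stages. The remaining members higher at all stages with the largest differences were HORVU7Hr1G114270 (3.13, 3.10 and 5.52 on the log2 scale), whose annotation names only a wheat scaffold, and the disease resistance genes HORVU7Hr1G111620 and HORVU7Hr1G115990.

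Among genes lower in mnd1.a, HORVU7Hr1G110540 (630531236 to 630532276), annotated as like lecithin-cholesterol acyltransferase, an enzyme that moves fatty acyl chains to sterols, had no count in any mnd1.a library. Bowman held 0.366, 0.476 and 0.533 CPM at W2.0 and 1.06, 0.642, 1.35 and 0.507 CPM at W5.0. With 3 counts over the group as the floor, its level in mnd1.a was at least 6.36-fold lower at W2.0. The bound was 9.37-fold at W3.5, and it was 15.5-fold at the last stage. Its neighbour HORVU7Hr1G110530, of the same family, likewise had no count in mnd1.a at W3.5 and W5.0, against 0.257 to 0.901 CPM in the 8 Bowman libraries. HORVU7Hr1G111810 (634624792 to 634627718), of unknown function, had 0, 0 and 0.851 CPM in mnd1.a at W2.0 and no count later, against 3.86 to 9.68 CPM in the 11 Bowman libraries. It was at least 98-fold lower at W3.5 and at least 130-fold lower at W5.0.

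The BTB/POZ gene HORVU7Hr1G107980 (624137377 to 624138517), of a family of adaptors for ubiquitin ligases, was lower in every mnd1.a library but remained expressed. It had 1.48, 1.78, 1.44 and 1.48 CPM in mnd1.a at W5.0 and 17.4, 15.0, 14.9 and 13.9 CPM in Bowman. At W2.0 it had 2.32, 2.34 and 4.99 CPM in mnd1.a and 13.9, 16 and 14.6 CPM in Bowman, with the highest mnd1.a value in replicate 3. Elongin A (HORVU7Hr1G119520), a part of a transcription elongation factor, was lower by 1.31 ± 0.30, 2.72 ± 0.29 and 2.56 ± 0.26 on the log2 scale. Without replicate 3 of mnd1.a its W2.0 value was -1.87 ± 0.30. For 60S ribosomal protein L30 (HORVU7Hr1G110660), a part of the large ribosomal subunit, mnd1.a held 56.2, 51.1, 57.1 and 58.7 CPM at W5.0, and Bowman held 116, 138, 128 and 136 CPM. The kinase gene HORVU7Hr1G118610 was lower by 2.96, 2.60 and 2.94 on the log2 scale, with -3.91 at W2.0 without replicate 3, but it overlaps HORVU7Hr1G118620, from which it starts 1 base away, so the division of reads between them is uncertain.

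The 4 genes that differed by less than 2-fold were the following. SART3, a splicing factor annotated by its human name as a carcinoma antigen (HORVU7Hr1G113320), had 27.0, 26.0, 26.1 and 26.5 CPM in mnd1.a at W5.0 and 39.2, 43.8, 40.8 and 40.8 CPM in Bowman. A fibrillarin-like gene (HORVU7Hr1G108780), whose product methylates ribosomal RNA, was lower by 0.79 ± 0.13, 0.70 ± 0.12 and 0.76 ± 0.11. A pseudouridine synthase (HORVU7Hr1G117540), of a family that modifies RNA bases, was lower by 0.66 ± 0.15, 0.57 ± 0.14 and 0.73 ± 0.13, although the lines overlapped at W3.5. A cyclophilin-type isomerase (HORVU7Hr1G107520) was lower by 0.52 ± 0.08, 0.42 ± 0.07 and 0.85 ± 0.07, and its difference depended on stage (edgeR adjusted p = 0.0264, and 0.0521 without replicate 3 of mnd1.a at W2.0).

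**Figure D2:**
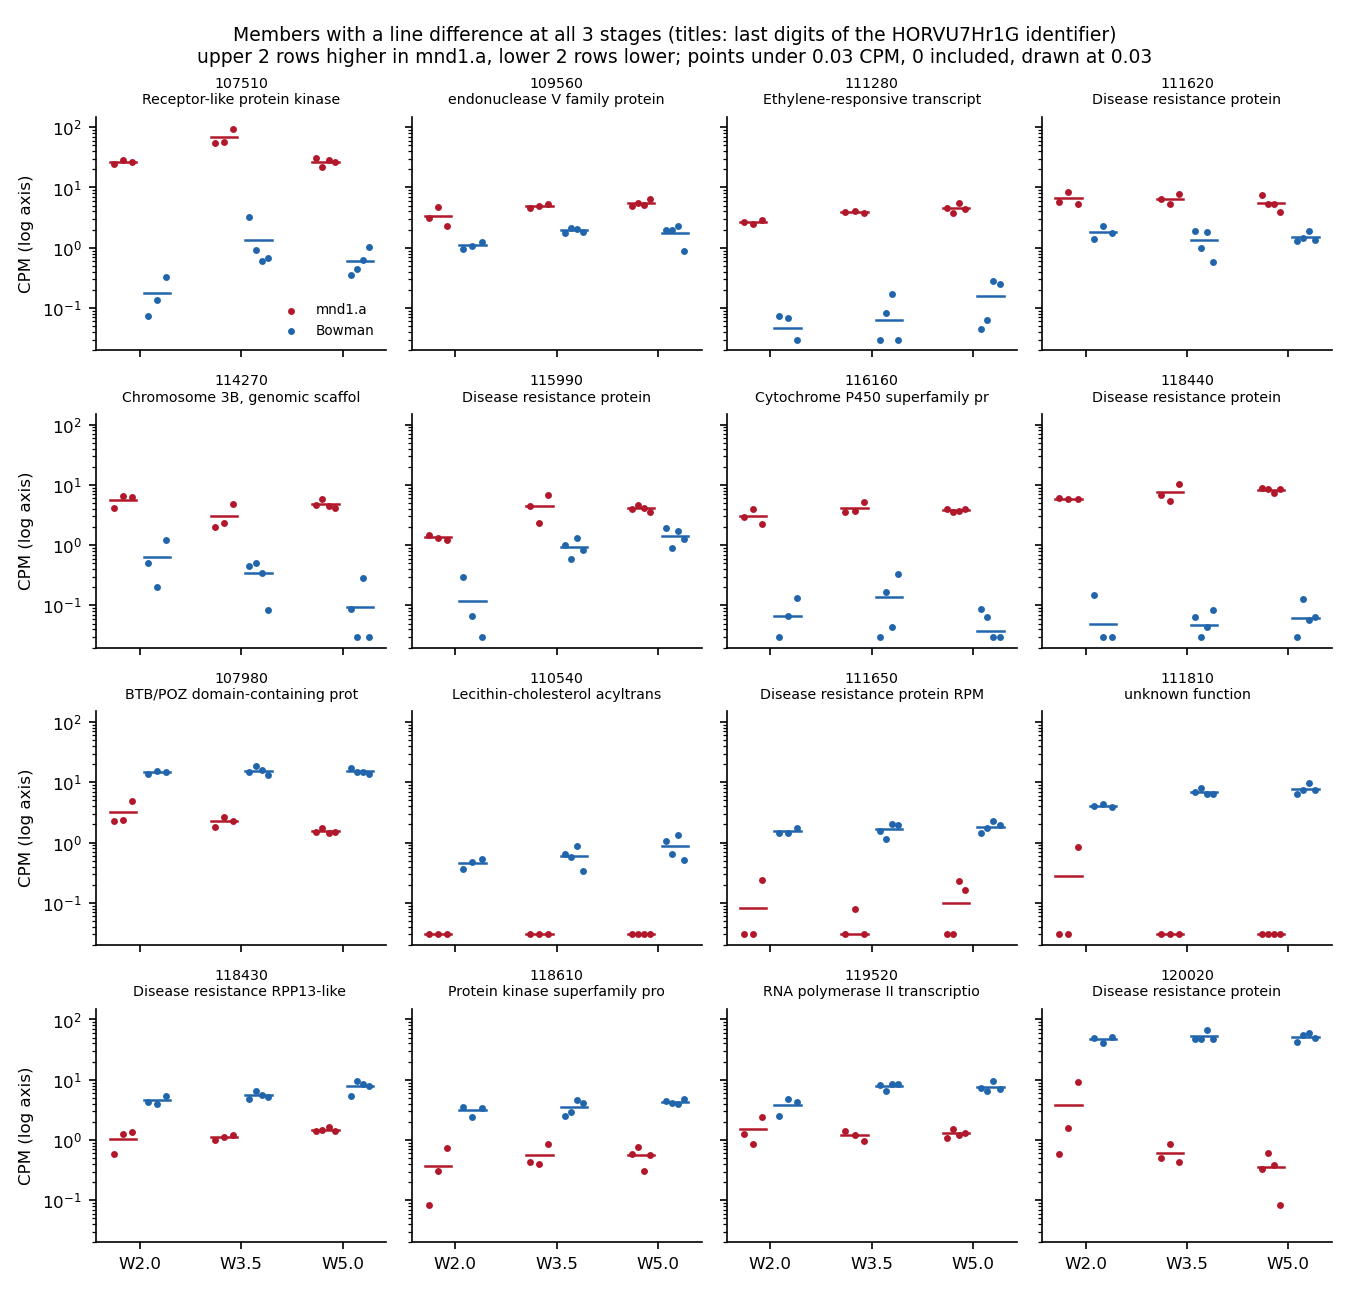
CPM on a log axis (vertical) by stage (horizontal) in each library for the 16 genes with the largest smallest difference among the 29 called at all stages, 8 higher and 8 lower in mnd1.a. Points are libraries, mnd1.a in red to the left of Bowman in blue, and bars are group means. The lines do not overlap within a stage in any of the 16 panels (18.4%, 12.9% and 34.2% of all genes in stage order). The choice of these genes by large differences at every stage favours this. Replicate 3 of mnd1.a at W2.0 is the highest red point of its group for HORVU7Hr1G120020 at 9.12 CPM.

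Both directions occurred on both sides of MND1. Of the 29 genes called at all stages, 17 lie below MND1, 5 of them higher in mnd1.a, and 12 lie above, 5 of them higher. Of the 28 pairs of successive genes of this set, 11 had opposite directions. The set spans 27.5 Mb, from HORVU7Hr1G107510 to HORVU7Hr1G120020, with 23 tested genes of the segment below its lower end and 52 above its upper end. In windows of 5 Mb from 620 Mb upward, it numbered 3, 5, 7, 3, 3, 5, 3 and 0 genes. Between 590 and 620 Mb, 1 gene was called at all stages, a polyubiquitin gene at 613737837 (HORVU7Hr1G103550), and below 600 Mb of 7H there was none among 2242 tested genes, against 0.312% of all genes.

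Calls at W2.0 were rarer below the lower limit at 620 Mb, a description only, since line differences chose the segment. In the windows of 5 Mb from 590 Mb up to it, 36, 28, 39, 29, 30 and 26 genes were tested. Of these, 0, 0, 0, 0, 1 and 0 were called at W2.0. In the next 3 windows, 4, 5 and 8 of 48, 51 and 42 tested genes were called, against 0.79% of all genes. At W5.0 the windows below the limit held 11, 9, 16, 9, 7 and 7 calls. The next 3 held 20, 25 and 24, against 30.2% of all genes. The nearest tested genes outside the limit were a receptor kinase (HORVU7Hr1G106450), with log2 fold changes of -0.25, -0.43 and -0.14, and a disease resistance gene (HORVU7Hr1G106510), with -1.08, -0.86 and -1.66. Just inside it were a xyloglucan endotransglucosylase (HORVU7Hr1G106530), a cell wall enzyme, with -0.31, -0.45 and -0.33, and a metal transporter (HORVU7Hr1G106570), with -1.29, -0.18 and 0.10. The third inside was an alpha-glucosidase (HORVU7Hr1G106540), with -0.36, 0.68 and 1.05.

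Close to MND1 itself, genes with and without line differences lay side by side. The nearest gene called at all stages below it, 385 kb away, was HORVU7Hr1G113350, annotated as an HC toxin reductase, which in maize detoxifies a fungal toxin. It had 4.04, 3.78, 3.63 and 3.20 CPM in mnd1.a at W5.0 and 8.78, 6.17, 7.21 and 6.09 CPM in Bowman. Above MND1 the nearest, HORVU7Hr1G114270, lay 2147 kb away. Between these, 8 of 14 tested genes were called at 1 or more stages, against 44.8% of the segment and 31.5% of all genes. HORVU7Hr1G113450, without a functional annotation, had 16.7, 19.0, 17.6 and 20.0 CPM in mnd1.a at W5.0 and 46.4, 97.7, 74.6 and 66.3 CPM in Bowman. Its log2 fold change was -0.74 ± 0.23, -1.53 ± 0.22 and -1.96 ± 0.20, called at the later stages. A magnesium transporter (HORVU7Hr1G113400) and a DNA glycosylase (HORVU7Hr1G113650) had log2 fold changes within 0.24 of 0 at every stage. RUB1 (HORVU7Hr1G113500), a ubiquitin-like modifier of ubiquitin ligases, had -0.02 ± 0.11, -0.06 ± 0.11 and -0.49 ± 0.10. One DnaJ chaperone (HORVU7Hr1G113460) had -0.92 ± 0.39, -1.15 ± 0.34 and -1.33 ± 0.32, while another (HORVU7Hr1G113530) was too low to be tested. The receptor kinase HORVU7Hr1G113510 had 1.48, 1.24, 1.21 and 1.15 CPM in mnd1.a at W5.0 and 0.576, 0, 0.113 and 0.444 CPM in Bowman, but overlapping levels at W2.0.

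The disease resistance genes held 7 of the 29 genes called at all stages, more than any other annotation class except the unsorted remainder, which held 8. The segment has 32 genes of this class, a list made by annotation words that includes 2 dirigent-like genes, and 26 were tested. Of these, 7 were called at W2.0 (3 higher, 4 lower), 12 at W3.5 (6 and 6) and 19 at W5.0 (11 and 8). Elsewhere in the genome, 246 genes of the class were tested, and 0, 4 and 62 were called at the 3 stages. At 1 or more stages, 73.1% of the class inside the segment and 25.2% outside it were called, against 31.5% of all genes, a description of the differences that chose the segment.

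In 2 places, neighbouring resistance genes called at all stages went in opposite directions. Between 634190652 and 634372735, HORVU7Hr1G111610 was lower, HORVU7Hr1G111620 higher and HORVU7Hr1G111650 lower in mnd1.a at all stages. HORVU7Hr1G111620 had 5.80, 8.50 and 5.41 CPM in mnd1.a at W2.0, against 1.39, 2.31 and 1.73 CPM in Bowman. HORVU7Hr1G111650, annotated as RPM1, a receptor that in Arabidopsis recognises bacterial effectors, had 0, 0 and 0.243 CPM in mnd1.a at W2.0, against 1.47, 1.43 and 1.73 CPM in Bowman. Its W2.0 log2 fold change was -3.92, and -7.52 without replicate 3, where mnd1.a has no count and the value depends on the prior count. A further pair of genes nearby had no count in any mnd1.a library: HORVU7Hr1G111710, with up to 1.77 CPM in Bowman, and HORVU7Hr1G111670, annotated as LR10 after a rust resistance gene of wheat, with up to 1.46 CPM. Other tested resistance genes with identifiers among these differed little at W2.0 and were not called there. HORVU7Hr1G111630, HORVU7Hr1G111660 and HORVU7Hr1G111700 had log2 fold changes of 0.18, 0.24 and -0.09 at that stage.

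HORVU7Hr1G118430 and HORVU7Hr1G118440, at 647631135 and 647645037, form another such pair. HORVU7Hr1G118430, annotated as like RPP13, had 1.40, 1.47, 1.67 and 1.40 CPM in mnd1.a at W5.0 and 5.45, 9.38, 8.50 and 7.87 CPM in Bowman, the reverse of its neighbour. Between 642541173 and 642612710, 3 resistance genes were all higher in mnd1.a. HORVU7Hr1G115950 and HORVU7Hr1G115940, a receptor kinase gene beside it, had no count in any Bowman library. HORVU7Hr1G115990 had 4.04, 4.63, 4.16 and 3.6 CPM in mnd1.a at W5.0 and 1.91, 0.899, 1.69 and 1.27 CPM in Bowman. HORVU7Hr1G116000 had 3.87, 3.86, 4.16 and 2.14 CPM in mnd1.a at that stage and 0.177, 0.385, 0.113 and 0.254 CPM in Bowman.

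Of the 7 resistance genes called at all stages, the most abundant in Bowman was HORVU7Hr1G120020 (650780342 to 650785388). In mnd1.a it had 0.580, 1.56 and 9.12 CPM at W2.0. Its W3.5 libraries held 0.498, 0.875 and 0.427 CPM, and those of W5.0 held 0.330, 0.618, 0.378 and 0.0821 CPM. The 11 Bowman libraries held 41.3 to 67.5 CPM. The value of 9.12 CPM came from replicate 3, the library with other Bowman-high transcripts, and without it the log2 fold change at W2.0 was -5.44 ± 0.34 in place of -3.57 ± 0.50. HORVU7Hr1G117570 had no count in mnd1.a at W3.5 and W5.0 and 1.18 to 4.8 CPM in Bowman at these stages. Of the 26 genes, 7 were called at no stage.

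**Figure D3:**
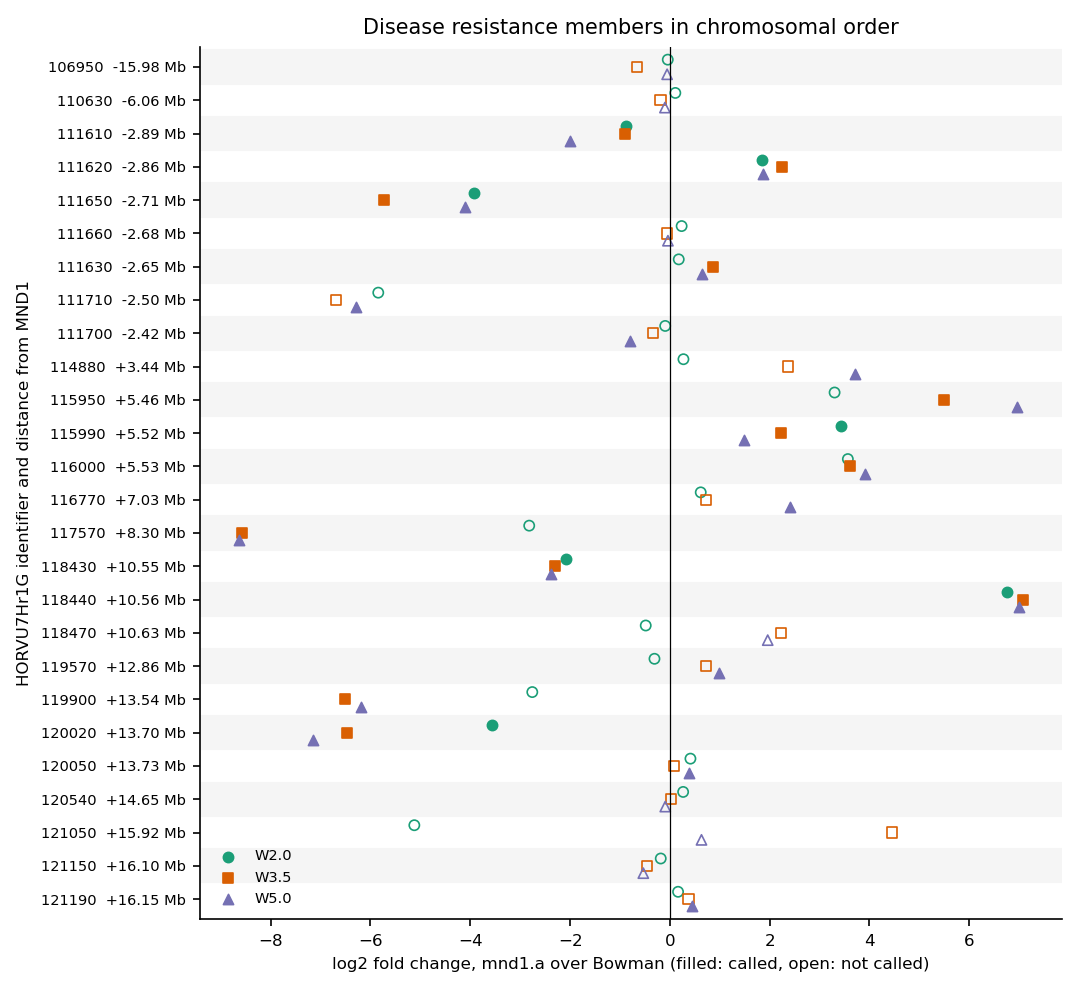
Log2 fold change of mnd1.a over Bowman (horizontal axis) at each of the 3 stages for the 26 tested disease resistance genes in chromosomal order, each labelled with its distance from MND1 (vertical axis). Filled symbols are called and open ones are not; 7 genes have 3 filled symbols, 3 of them to the right of 0 and 4 to the left, and neighbours such as HORVU7Hr1G118430 and HORVU7Hr1G118440 lie on opposite sides.

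Fold changes of the same gene were more alike between stages in the segment than elsewhere. Across the 377 genes, Pearson's r was 0.73 between W2.0 and W3.5, 0.88 between W3.5 and W5.0 and 0.73 between W2.0 and W5.0. Across the 20755 other tested genes it was 0.18, 0.44 and 0.11. The stages share no libraries, but they share the reference transcripts and the fit, genes are not independent replicates, and the values that chose the segment enter these correlations. Of the 377 genes, 209 (55.4%) had the same sign at all stages, against 36.4% of the other genes. Among the 208 genes called at no stage, r was -0.01, 0.41 and 0.03 and Spearman's rho 0.18, 0.40 and 0.14, a subset that leaves out the large differences by construction.

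**Figure D4:**
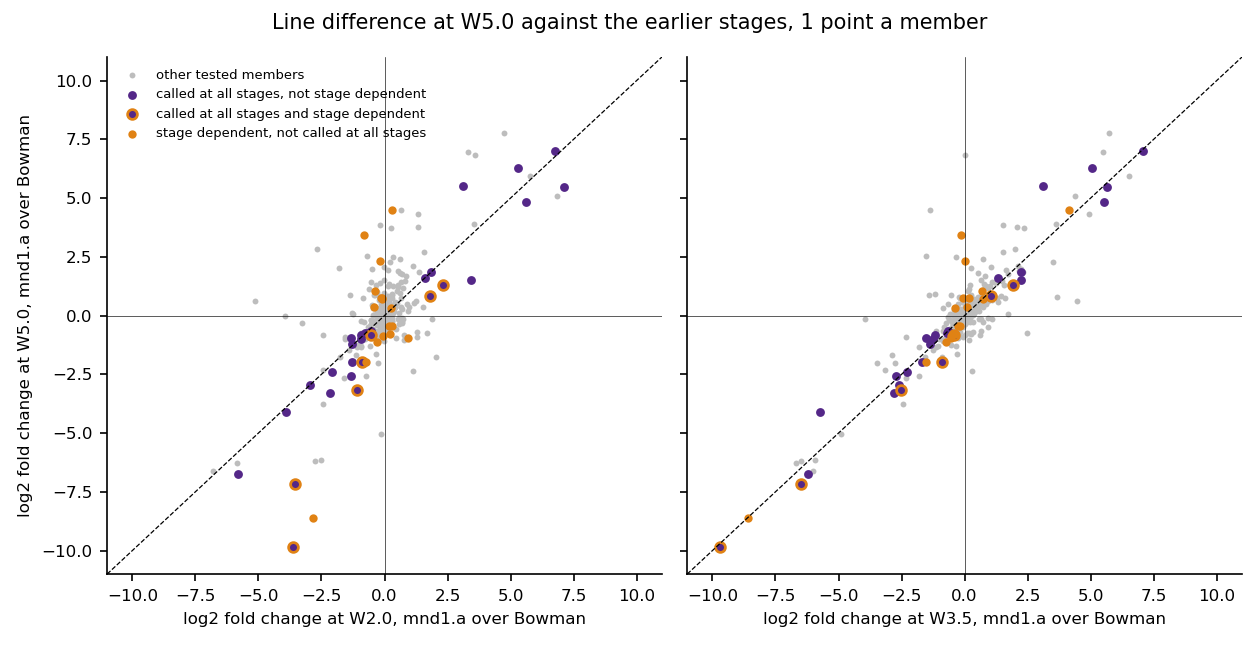
Log2 fold change of mnd1.a over Bowman at W5.0 (vertical axis) against that at W2.0 (left) and at W3.5 (right), 1 point for each of 377 tested genes. The dashed line marks equal values; purple points, called at all stages, follow it, and points with orange are the 24 genes whose line difference depended on stage.

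The line difference depended on stage for 24 of 377 genes (6.37%, against 5.72% of all genes). Between W2.0 and W5.0 it changed for 44 genes (11.7%, against 10.3%), between W3.5 and W5.0 for 6 (1.59%, against 1.02%), and between W2.0 and W3.5 for 1 (0.265%, against 0.189%). That last count was 0 to 8 with single libraries left out and 0 under limma-voom. Without replicate 3 of mnd1.a at W2.0, 15 of the 24 still depended on stage, and the calls between W2.0 and W5.0 fell to 18. Over all genes, the shares without that library were 2.35% and 4.49%. The count of 24 was also 15 without replicate 4 of mnd1.a at W5.0 and 37 without replicate 3 of Bowman at W3.5, with 3.02% and 8.41% of all genes, and the 6 became 3 without any of 7 single libraries. Of the 24 genes, 19 differed most at W5.0, 12 kept 1 sign at all stages, and 9 of these had a larger difference at each later stage. These shares were not counted over all stage-dependent genes. Line differences over all genes were also called most often at W5.0 (30.2%, against 0.79% at W2.0).

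Shared and stage-dependent differences were not exclusive. Of the 29 genes called at all stages, 7 also depended on stage (24.1%), against 4 of 38 other genes called at 3 stages (10.5%) and 5.72% of all genes. The share of 24.1% leaned on replicate 3 of mnd1.a at W2.0. Without it, HORVU7Hr1G107520, HORVU7Hr1G111810 and HORVU7Hr1G120020 no longer depended on stage. HORVU7Hr1G108960 and HORVU7Hr1G111610 lost their W2.0 calls (edgeR adjusted p = 0.155 and 0.0828). HORVU7Hr1G109420 and HORVU7Hr1G116940 kept both. All 24 stage-dependent genes were called at 1 or more stages, 10 of them at W5.0 alone. Elsewhere in the genome, all but 50 of 1185 stage-dependent genes were called at 1 or more stages too. Levels changed over stages in Bowman for 19 of the 24 and in mnd1.a for 14, with both in 9. Over all genes the shares were 48.4%, 21% and 15.4%. A line difference that depends on stage needs a change over stages in at least 1 line, so high counts follow from the choice of these genes.

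At W5.0 the title codes of the libraries differ between the lines and at the earlier stages they do not, so code and line cannot be told apart there. The Bowman libraries of W2.0 carry 1 code and those of W3.5 and W5.0 the other, while in mnd1.a W3.5 alone has that other code. Changes in Bowman between W2.0 and the later stages, changes in mnd1.a between W3.5 and the other stages, and differences between the lines in any change that involves W5.0 therefore cannot be told apart from the code either. The step between W2.0 and W5.0 in mnd1.a and that between W3.5 and W5.0 in Bowman lie within 1 code. Transcripts annotated as senescence-associated protein or rRNA intron-encoded homing endonuclease, 119 in all, move with that code. They are listed as like ribosomal RNA by these words alone, and no sequences were compared. They summed to 23615 to 27171 CPM in mnd1.a at W5.0, against 2126 to 3551 CPM in Bowman, and to 12752 to 15892 CPM in mnd1.a at W2.0, against 19184 to 28667 CPM in Bowman. Annotation words such as photosystem gave a list of 96 green leaf genes. It summed to 922 to 1640 CPM in mnd1.a at W2.0, against 353 to 592 CPM in Bowman, with 29 of 79 tested higher and 0 lower. At W3.5 and W5.0 the ranges of that list overlapped between the lines. A list of 40 genes annotated as MADS-box, a family of transcription factors, was taken for young inflorescence. How well it measures the amount of that tissue was not tested. It summed to 739 to 796 CPM in mnd1.a at W3.5, against 923 to 1129 CPM in Bowman, with 12 of 34 tested lower and 0 higher. At W5.0 it summed to 926 to 959 CPM in mnd1.a and 1072 to 1393 CPM in Bowman, with 7 lower and 0 higher, and at W2.0 the ranges overlapped. The part of these lists in the stage-dependent differences was not tested.

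The smallest p belonged to HORVU7Hr1G107130 (621958052 to 621958370), annotated as a senescence-associated protein. By that annotation it is 1 of the transcripts listed as like ribosomal RNA. It had 914, 760 and 952 CPM in mnd1.a at W2.0, against 1483, 1877 and 1285 CPM in Bowman. At W3.5 it had 128, 117 and 158 CPM in mnd1.a and 113, 190, 152 and 133 CPM in Bowman. At W5.0 it had 1849, 1423, 1579 and 1440 CPM in mnd1.a and 146, 116, 192 and 137 CPM in Bowman. Its log2 fold change was -0.82 ± 0.19, -0.13 ± 0.18 and 3.41 ± 0.18 (edgeR adjusted p = 1.83e-09 for stage dependence), the course of the whole list. HORVU7Hr1G107840, without a functional annotation, was also higher in mnd1.a at W5.0, with 22.5, 27.4, 27.0 and 22.3 CPM in mnd1.a at W5.0 and 4.08, 3.98, 7.32 and 4.57 CPM in Bowman (adjusted p = 0.00213).

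Phytoene synthase, the first committed enzyme of carotenoid synthesis (HORVU7Hr1G120660, 652117526 to 652121158), was called at W5.0 alone, with a difference of the other sign at W2.0 that was not called. At W2.0 it had 11.9, 10.3 and 13.7 CPM in mnd1.a and 6.16, 6.53 and 6.33 CPM in Bowman. At W5.0 it had 20.0, 21.4, 22.7 and 22.1 CPM in mnd1.a and 38.1, 46.4, 37.2 and 44.7 CPM in Bowman. In both lines it was higher at W5.0 than at W2.0, by 0.84 ± 0.19 in mnd1.a and by 2.71 ± 0.21 in Bowman on the log2 scale (edgeR adjusted p = 0.00645 and 1.99e-08). The difference between these steps, -1.87 ± 0.27, had an adjusted p of 0.0003.

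For several genes Bowman fell between W2.0 and W5.0, without a call for that step in mnd1.a. Over all stages, the first and the last gene of this group also changed in mnd1.a (adjusted p = 0.0471 for HORVU7Hr1G106540 and 0.0162 for HORVU7Hr1G120780). Alpha-glucosidase (HORVU7Hr1G106540), an enzyme that frees glucose from short glucans, had 99.6, 93.8 and 78.8 CPM in mnd1.a at W2.0, against 111, 96.4 and 143 CPM in Bowman. At W5.0 it had 88.3, 91.9, 91.8 and 113 CPM in mnd1.a and 46.8, 42.9, 36.3 and 59.6 CPM in Bowman (edgeR adjusted p = 0.0024 for stage dependence). Cytosolic glyceraldehyde-3-phosphate dehydrogenase C2 (HORVU7Hr1G108580), of glycolysis, averaged 96.8 ± 2.63 CPM in mnd1.a at W5.0 and 59.2 ± 10.2 CPM in Bowman (SD, n = 4 each), after like levels at W2.0 (adjusted p = 0.00827). Bowman fell by 0.84 ± 0.12 between W2.0 and W5.0 (adjusted p = 2.03e-05), and the step in mnd1.a was -0.03 ± 0.12 (adjusted p = 0.888). A NAC transcription factor (HORVU7Hr1G120780), of a plant family of developmental and stress regulators, had 19.3, 24.2, 19.3 and 21.1 CPM in mnd1.a at W5.0 and 14.2, 11.8, 10.3 and 13.4 CPM in Bowman (adjusted p = 0.00944).

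Other genes rose in Bowman over this interval, again without a call for that step in mnd1.a. Over all stages, HORVU7Hr1G116040 and HORVU7Hr1G111610 changed in mnd1.a too (adjusted p = 0.0483 and 0.0411). The RING finger gene HORVU7Hr1G109550, of a ubiquitin ligase family, had 19.3, 19.6, 17.3 and 18.4 CPM in mnd1.a at W5.0 and 30.5, 34.8, 38.8 and 33.0 CPM in Bowman, with overlapping levels at W2.0 (adjusted p = 0.0109). Phosphopantothenate-cysteine ligase 2 (HORVU7Hr1G116040), of coenzyme A synthesis, had log2 fold changes of -0.30 ± 0.11, -0.75 ± 0.10 and -1.12 ± 0.09 (adjusted p = 0.00583). Glycine-rich domain-containing protein 2 (HORVU7Hr1G106860) had 0.23 ± 0.15, -0.38 ± 0.14 and -0.79 ± 0.13 (adjusted p = 0.0114). The resistance gene HORVU7Hr1G111610 was lower at all stages and most at W5.0, with 3.79, 5.02, 5.15 and 3.70 CPM in mnd1.a and 14.9, 19.0, 17.3 and 19.5 CPM in Bowman (adjusted p = 0.00535).

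Allantoate amidohydrolase, which releases ammonia from purine breakdown products (HORVU7Hr1G108960, 626552819 to 626557636), showed the reverse, a fall over stages in mnd1.a. It had 8.53, 6.79 and 7.18 CPM in mnd1.a at W2.0, against 16.3, 13.1 and 19.0 CPM in Bowman. At W3.5 it had 2.84, 3.66 and 2.56 CPM in mnd1.a and 13.0, 15.8, 26.9 and 12.3 CPM in Bowman. The W5.0 levels were 1.57, 1.31, 1.29 and 1.31 CPM in mnd1.a and 13.3, 13.0, 14.3 and 8.75 CPM in Bowman. The step between W2.0 and W5.0 was -2.45 ± 0.27 in mnd1.a (adjusted p = 0.000108) and -0.38 ± 0.22 in Bowman (adjusted p = 0.156), and their difference was -2.06 ± 0.36 (adjusted p = 0.00162). The F-box gene HORVU7Hr1G116940, of substrate adaptors of ubiquitin ligases, was higher in mnd1.a throughout, with differences that shrank, 1.81 ± 0.15, 1.05 ± 0.13 and 0.81 ± 0.12 (adjusted p = 0.011). Arp2/3 subunit 3, described above, was the other gene higher at all stages whose difference depended on stage (adjusted p = 0.0247).

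**Figure D5:**
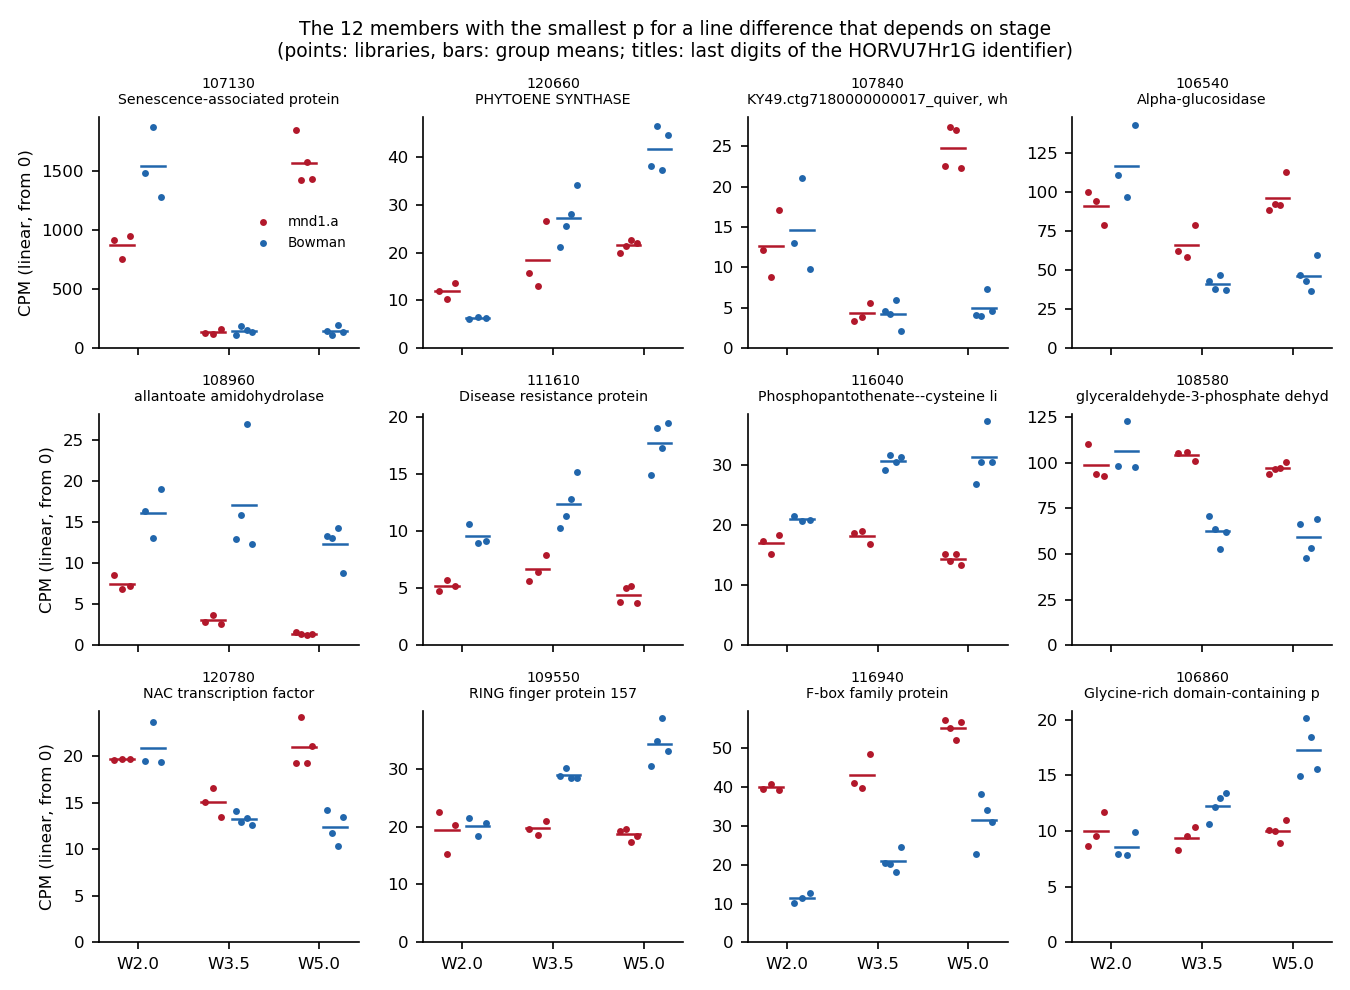
CPM on a linear axis from 0 (vertical) by stage (horizontal) in each library for the 12 genes with the smallest p for stage dependence. Points are libraries, mnd1.a in red to the left of Bowman in blue, and bars are group means; phytoene synthase shows red above blue at W2.0 and below it at W5.0, and allantoate amidohydrolase shows red points near 1.3 CPM at W5.0, far under the blue ones.

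Some stage-dependent calls were lost under many alternatives. Without replicate 3 of mnd1.a at W2.0, the adjusted p for stage dependence was 0.177 for HORVU7Hr1G120020, 1 for HORVU7Hr1G111810 and 0.0923 for HORVU7Hr1G117570, against 0.0288, 0.0403 and 0.0281 with it. In the first 2, replicate 3 held the highest level of its group. O-methyltransferase 1 (HORVU7Hr1G119480) and HORVU7Hr1G113450, the undescribed gene second nearest below MND1, lost their calls too, at 0.106 and 0.157, against 0.0368 and 0.0457. The W2.0 log2 fold change moved little for HORVU7Hr1G117570 (-2.95 without replicate 3, against -2.82 with it) and HORVU7Hr1G119480 (0.46, against 0.29). All 5 were also lost under limma-voom and without replicate 1 of Bowman at W2.0. Of 28 alternatives, HORVU7Hr1G111810 lost its call in 17, HORVU7Hr1G113450 in 16, HORVU7Hr1G119480 in 15, HORVU7Hr1G120020 in 7 and HORVU7Hr1G117570 in 6. The 12 genes with the smallest p all remained called without that library.

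Within mnd1.a, 89 of 377 genes changed over stages (23.6%, against 21% of all genes), and within Bowman 183 did (48.5%, against 48.4%), with the code changing at W3.5 in mnd1.a and after W2.0 in Bowman. In both lines 61 genes changed (16.2%, against 15.4%), 53 of them in the same direction between W2.0 and W5.0, and in neither line 166. From W2.0 to W5.0, 37 genes rose in mnd1.a (9.81%, against 8.66%) and 48 fell (12.7%, against 10.4%). In Bowman over the same interval, 78 rose (20.7%, against 24.9%) and 110 fell (29.2%, against 27.1%). The shares in the segment were near those over all genes in either line.

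The most abundant genes of the segment did not separate the lines at all stages. High mobility group protein B2 (HORVU7Hr1G121390), a DNA-bending protein of chromatin, had log2 fold changes of 0.06 ± 0.13, 0.01 ± 0.12 and -0.04 ± 0.11 at levels from 1008 to 1752 CPM. The V-type ATP synthase alpha chain (HORVU7Hr1G109770), of a proton pump, had 0.10 ± 0.13, 0.24 ± 0.12 and 0.17 ± 0.11. A chaperone of the HtpG family (HORVU7Hr1G117000) had -0.45 ± 0.17, 0.34 ± 0.16 and 0.33 ± 0.15, and its line difference did not pass the test for stage dependence (adjusted p = 0.0637).

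Among the other annotation classes, those with 2 genes called at all stages were undescribed genes (2 of 31 tested, 6.45%) and 5 more. These had 2 of 10 tested genes of ribosomal proteins and translation (20%), 2 of 18 oxidoreductases (11.1%), 2 of 18 ubiquitin and F-box genes (11.1%), 2 of 28 transcription regulators (7.14%) and 2 of 30 protein kinases (6.67%), against 7.69% of the segment. Of 11 transport genes none was called at all stages, against 0.312% of all genes, a class too small to read much from. At 1 or more stages 2 were called (18.2%), against 31.5% of all genes and 30.4% of transport genes elsewhere. The ureide permease gene HORVU7Hr1G108790, of a family that carries products of purine breakdown, had 9.07, 8.80, 8.17 and 8.71 CPM in mnd1.a at W5.0 and 18.0, 15.4, 24 and 12.7 CPM in Bowman, with overlapping levels at the earlier stages. Zinc finger protein 3 (HORVU7Hr1G118490) had no count in any Bowman library and 0.824, 0.618, 0.757 and 1.64 CPM in mnd1.a at W5.0. A RING/U-box gene (HORVU7Hr1G107430) had no count in Bowman at any stage either, and 0.154 to 0.875 CPM in the 10 mnd1.a libraries.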

How the data were processed

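Estimated counts per transcript were deposited by the authors for 21 libraries, with the authors' log2 fold changes, p-values and FDR, per the file headers. The submitters' processing notes name Salmon, limma, GATK and BWA 0.7.15 without roles. Per the file headers, the annotation comes from Mascher and colleagues. Positions are those of the table, and the name of its build is not given in the sources. Counts of both lines refer to the same reference transcripts, and whether sequence differences between the lines changed them was not tested. Of the count values, 94.9% were not whole and were rounded. Per-library log2 CPM columns of the authors, 21 in all, were not used. Column headers give line and stage, with W3.0 taken as W3.5, and replicate numbers serve as names alone.

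Genes were kept by filterByExpr (minimum count 10, total 15), scaled by TMM (factors 0.902 to 1.08) and fitted in 1 model with 6 group means by edgeR 4.0.16 in R 4.3.3, robust quasi-likelihood F test, checked on simulated counts. SE was derived from F. A fold against a group without counts is a lower bound at 3 counts over the group. Intervals of ratios are exact and cover counting error only. Alternatives included DESeq2 1.42.0, limma-voom (limma 3.58.1), RLE factors, no filter, a threshold of 0.01, each library left out, and a replicate block, which was added after the headers were seen.

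Named genes were those with the 8 largest smallest differences per direction among genes called at all stages, the 12 smallest p for stage dependence, the 4 nearest MND1 and 3 nearest 620 Mb on each side, 2 per annotation class and the 4 most abundant. Other genes called at all stages, resistance genes and stage-dependent genes were named after their values were seen. The genes and lists were chosen with earlier results of these data known.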

Additional observations from a re-analysis of the deposited data

Results flagged for a closer look

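Among 171 groups of 4 libraries, 1 for each named gene and group, 1 library stood far from the rest in 16. A gap of this size arises by chance in about 5 of 100 groups, and the cause was not tested. In Bowman at W3.5, replicate 1 was the highest for HORVU7Hr1G107510 at 3.26 CPM (next 0.913), HORVU7Hr1G113210 at 19.2 CPM (next 12.6) and HORVU7Hr1G117000 at 853 CPM (next 582). Replicate 3 of the same group was the highest for HORVU7Hr1G120020 at 67.5 CPM, HORVU7Hr1G113530 at 0.431 CPM and HORVU7Hr1G116310 at 11.2 CPM, and the lowest for HORVU7Hr1G121390 at 1008 CPM. Replicate 2 held HORVU7Hr1G114380 at 0.083 CPM and replicate 4 held HORVU7Hr1G110470 at 0.59 CPM, each against 0 in the others. In Bowman at W5.0, HORVU7Hr1G110470 stood out at 1.97 CPM in replicate 4.

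In mnd1.a at W5.0, the highest library stood apart for HORVU7Hr1G107980 at 1.78 CPM, HORVU7Hr1G106540 at 113 CPM, HORVU7Hr1G108960 at 1.57 CPM and HORVU7Hr1G116310 at 0.53 CPM. The lowest stood apart for HORVU7Hr1G106530 at 0.0772 CPM and HORVU7Hr1G118620 at 1.59 CPM.

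The line difference itself differed between stages for 17 named genes, by edgeR's quasi-likelihood interaction test. The adjusted p was 1.83e-09 for HORVU7Hr1G107130, 0.00102 for HORVU7Hr1G120660, 0.00213 for HORVU7Hr1G107840, 0.0024 for HORVU7Hr1G106540, 0.00509 for HORVU7Hr1G108960 and 0.00535 for HORVU7Hr1G111610. It was 0.00583 for HORVU7Hr1G116040, 0.00827 for HORVU7Hr1G108580, 0.00944 for HORVU7Hr1G120780, 0.0109 for HORVU7Hr1G109550, 0.011 for HORVU7Hr1G116940 and 0.0114 for HORVU7Hr1G106860. It was 0.0281 for HORVU7Hr1G117570, 0.0288 for HORVU7Hr1G120020, 0.0368 for HORVU7Hr1G119480, 0.0403 for HORVU7Hr1G111810 and 0.0457 for HORVU7Hr1G113450, and these 5 lost their calls without replicate 3 of mnd1.a at W2.0, without replicate 1 of Bowman at W2.0 and under limma-voom.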

How the results depend on the processing

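The test for stage dependence has no sign, so the interaction of the pair of stages that differed most with all libraries was followed. No named gene that had passed the test changed the sign of this value under an alternative. Among named genes that had not passed, the sign changed for 10. An example is HORVU7Hr1G118440 for W3.5 against W2.0 (log2 0.32 with all libraries and -2.38 without replicate 1 of Bowman at W2.0). With 1 library left out at a time, genes with stage-dependent line differences numbered 15 to 37, those with an interaction of W3.5 against W2.0 0 to 8, of W5.0 against W3.5 3 to 6, and of W5.0 against W2.0 18 to 61. Stage changes numbered 61 to 117 in mnd1.a and 153 to 198 in Bowman. Line differences numbered 24 to 41 at W2.0, 49 to 105 at W3.5, 128 to 168 at W5.0 and 22 to 32 at all stages. Shares of all genes moved too. In the fits with the lowest and highest counts they were 1.23% and 10.8% at W3.5, and 21.7% and 33.4% at W5.0. The lowest counts of stage dependence and of W5.0 against W2.0 came without replicate 3 of mnd1.a at W2.0 (for stage dependence also without replicate 4 of mnd1.a at W5.0), and the highest of both without replicate 3 of Bowman at W3.5. DESeq2 called 49 stage-dependent genes (11% of all genes) and 10 for W3.5 against W2.0 (1.84% of all). For that last interaction limma-voom, the fit of the compared groups alone, the fit without both Bowman W3.5 libraries nearest to W5.0 and the threshold of 0.01 each gave 0, with 59 genes (15.6%, against 13.4% of all) at an unadjusted edgeR p under 0.05. The compared groups alone gave 3 for W5.0 against W3.5 (0.777% of all genes) and 31 line differences at W3.5 (0.484% of all genes, against 3.91% in the main fit). The threshold of 0.01 left 9 stage-dependent genes, 1 for W5.0 against W3.5, 14 for W5.0 against W2.0, 37 stage changes in mnd1.a and 47 line differences at W3.5. The shares of all genes at that threshold are not given here.

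Same-numbered libraries of the lines did not deviate together (r from -0.167 to 0.185), so the numbers were not taken as pairs. With a replicate block, 2 genes were called for W3.5 against W2.0 (0.203% of all genes) and 33 depended on stage (7.34% of all). Of the 31 genes of the segment with an FDR under 0.05 at all stages in the authors' deposited table, 26 were among the 29 called here. Depth limits the low genes: 3 counts in 1 library correspond to 0.13 to 0.253 CPM.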
